A study of Mus musculus with 6 samples.

Results

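Axon growth, guidance and neural adhesion genes were followed through 10 rows of the expression table, of 15734 in all: Gap43, Epha3, Sema5b, Robo1, Robo2, Boc, Alcam, Ncam2, Lsamp and Dscam. The rows were those whose gene name equals one of these symbols. They were picked on mouse chromosome 16, where the level of a row mostly matches what its gene name would lead to; elsewhere in this table it often does not. They were also proposed with earlier genotype results in view, so each genotype difference given here is a description of these libraries and is independent support for nothing.

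Guidance receptors sit on the growth cone, the moving tip of an axon, and turn it toward or away from cues. Slit proteins repel axons through Robo receptors, ephrins act through Eph receptors, and semaphorins are cues that often repel. Cell adhesion molecules of the immunoglobulin superfamily hold neural cells and axons together. At the stage studied the neural tube consists mostly of dividing progenitors, and the earliest neurons are sending out their first axons. Many of these genes are also active in progenitors and in tissue outside the nervous system.

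The libraries were made from poly(A) RNA of E9.5 mouse cranial tissue, dissected above the pharyngeal arches and otic vesicles. The mutant group was 3 embryos with neural tube defects carrying the msp3 allele on both copies of Smarcc1 (the gene of BAF155, part of the chromatin remodeller BAF). The other group was 3 homozygous wild-type embryos, described as separate embryos like the mutants, and both groups shared a mixed C57BL/6J and 129/SvImJ background. The sample labels give 19 to 21 somites, whereas the series design gives 21 to 23.

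The mutants held 63132575 to 82067578 reads in rows and the wild types 46170743 to 64024789. Mutant 2 stood apart on the first principal component of the tested rows, at -44.1, with the other libraries between -3.38 and 20.3. This component held 36.0% of the variance. On the second component wild type 1 lay at -28.0. Values without each library are therefore given where they differ. The row named Smarcc1 averaged 41152 ± 9892 in mutants and 51848 ± 9944 in wild types (SD, n = 3 each), with overlapping values. That row lies on chromosome 9, where rows often carry levels unlike those of the named gene.

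The name of 1 of the 10 rows is in doubt. Near the end of chromosome 16, several of the 22 rows from the one named Pigp on had levels unlike those of the genes they are named for. Brwd1, a broadly expressed chromatin reader, averaged 14.8 ± 3.19 normalized read counts (SD, n = 6 here and in the rest of this paragraph), and Wrb, a factor for membrane protein insertion, 11.6 ± 3.73. In the same stretch Kcnj6, a potassium channel subunit of excitable cells, stood at 14516 ± 487, and Igsf5, a junction protein of epithelia, at 8983 ± 344. Other names there raised no such doubt, among them the broadly expressed kinase Dyrk1a at 61590 ± 3836 and the protease Tmprss2, restricted to epithelia, at 5.46. The row named Dscam lies in this stretch, so its values are those of a row with that name and need not be those of the gene. The other 9 rows lie before it. These rows were singled out after their values were seen.

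**Figure D1:**
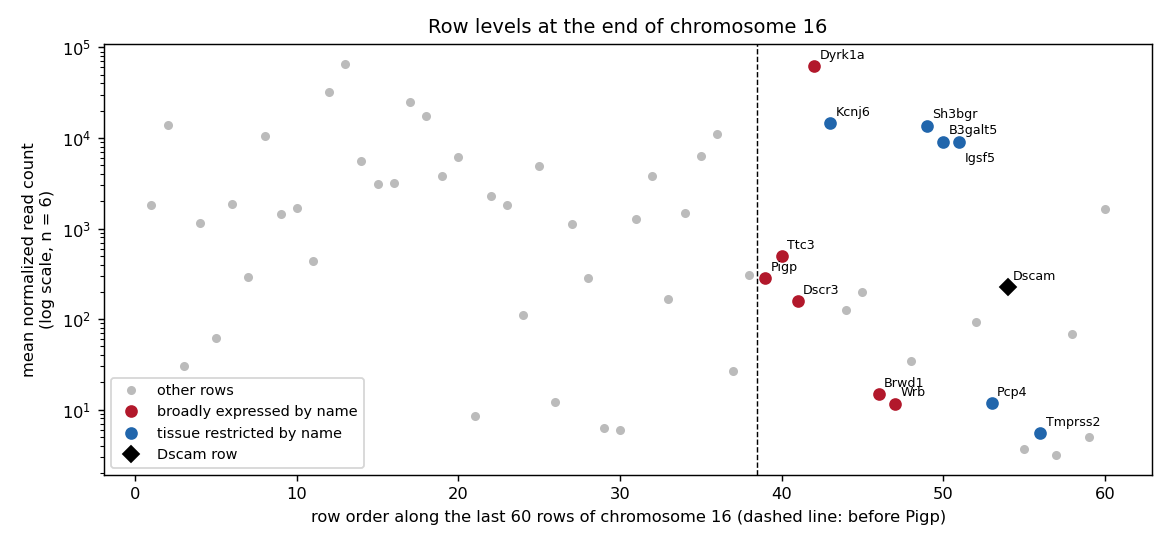
Mean normalized read count over the 6 libraries (log axis) of the last 60 rows of chromosome 16 in gene order. Right of the dashed line, some rows named for broadly expressed genes are low (Brwd1, 14.8) and some named for tissue-restricted genes are high (Kcnj6, 14516), while Dyrk1a, Pcp4 and Tmprss2 are not of this kind; the Dscam row lies among them.

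Levels per length spanned a wide range. Dividing the mean normalized read count by the length of all annotated exons gave 4062 per kb for Gap43, 1647 for Boc, 1121 for Sema5b, 757 for Robo1, 420 for Alcam, 178 for Robo2, 110 for Epha3, 32.6 for Lsamp and 3.87 for Ncam2. Gap43 thus had the highest count per annotated exon length of these 9 genes, and Ncam2 the lowest. The lengths take in every annotated exon, and the annotation used for counting is not known, so this need not be the order of transcript abundance. The ranges of neighbours in this order, each taken over all libraries, did not overlap but for Epha3. Its libraries ran from 37.4 to 220 per kb and overlapped those of Robo2 (159 to 203) above it and of Lsamp (28.8 to 42.8) below it.

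**Figure D2:**
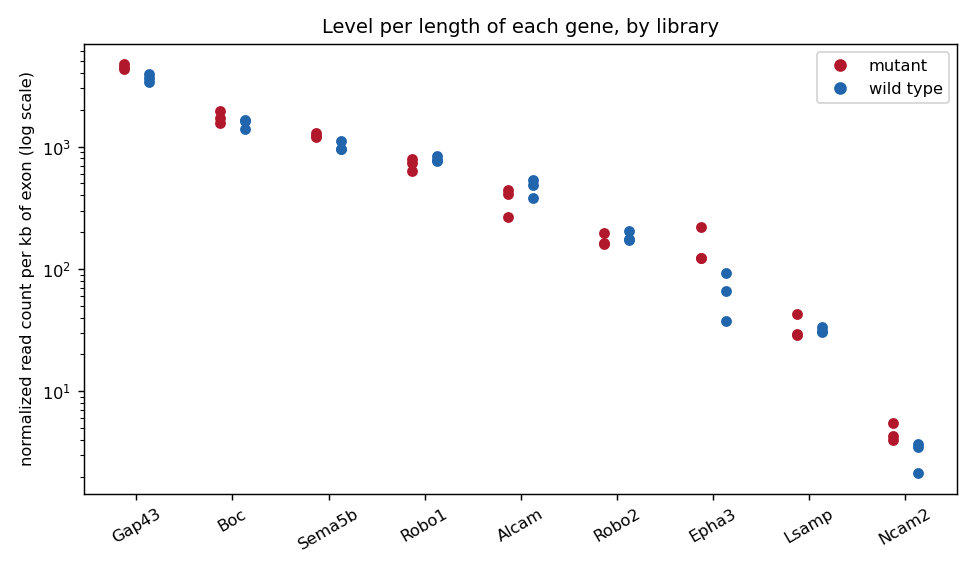
Normalized read count per kb of exon (log axis) of 9 genes, with 1 point per library, mutants in red and wild types in blue. The order runs from Gap43 at a mean of 4062 per kb to Ncam2 at 3.87, and the points of Epha3 reach into those of its neighbours.

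The comparison asked how these genes differ between mutant and wild-type cranial tissue. Gap43, Epha3, Sema5b and Ncam2 lay higher in all 3 mutants than in any wild type, as did the row named Dscam. Alcam, Robo1 and Robo2 had lower means in mutants with overlapping values, and Boc and Lsamp had higher means with overlapping values. With limma, 0 of the 10 had a Benjamini-Hochberg adjusted p under 0.05 when all 13329 tested rows were counted. Their adjusted p-values ran from 0.331 to 0.882. At an unadjusted p below 0.05 there were 3, namely Gap43, Epha3 and Sema5b, and the count of adjusted calls was also 0 with edgeR and 0 with DESeq2 on recovered reads. Over all tested rows limma called 3 (0.0225%), edgeR 2 (0.015%) and DESeq2 155 (1.16%), and 10.8% had an unadjusted limma p below 0.05 (5.31% with the mutants higher, as for the 3 genes, and 9.09% in either direction among chromosome 16 rows before Pigp).

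The genotypes did not overlap in 5 of the 10 rows, each with the mutants higher, where 8.69% of all tested rows did so in that direction and 10.4% in the other. Without the Dscam row it was 4 of 9. Among the 506 tested rows of chromosome 16 before Pigp these shares were 9.49% and 7.51%. The members were proposed with this contrast known, so nothing is read from their count. The median log2 difference of the 10 was 0.14, against -0.005 over all tested rows and 0.01 over those of chromosome 16 before Pigp. In bulk tissue, a change in the number of cells of a type and a change in RNA per cell cannot be told apart.

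**Figure D3:**
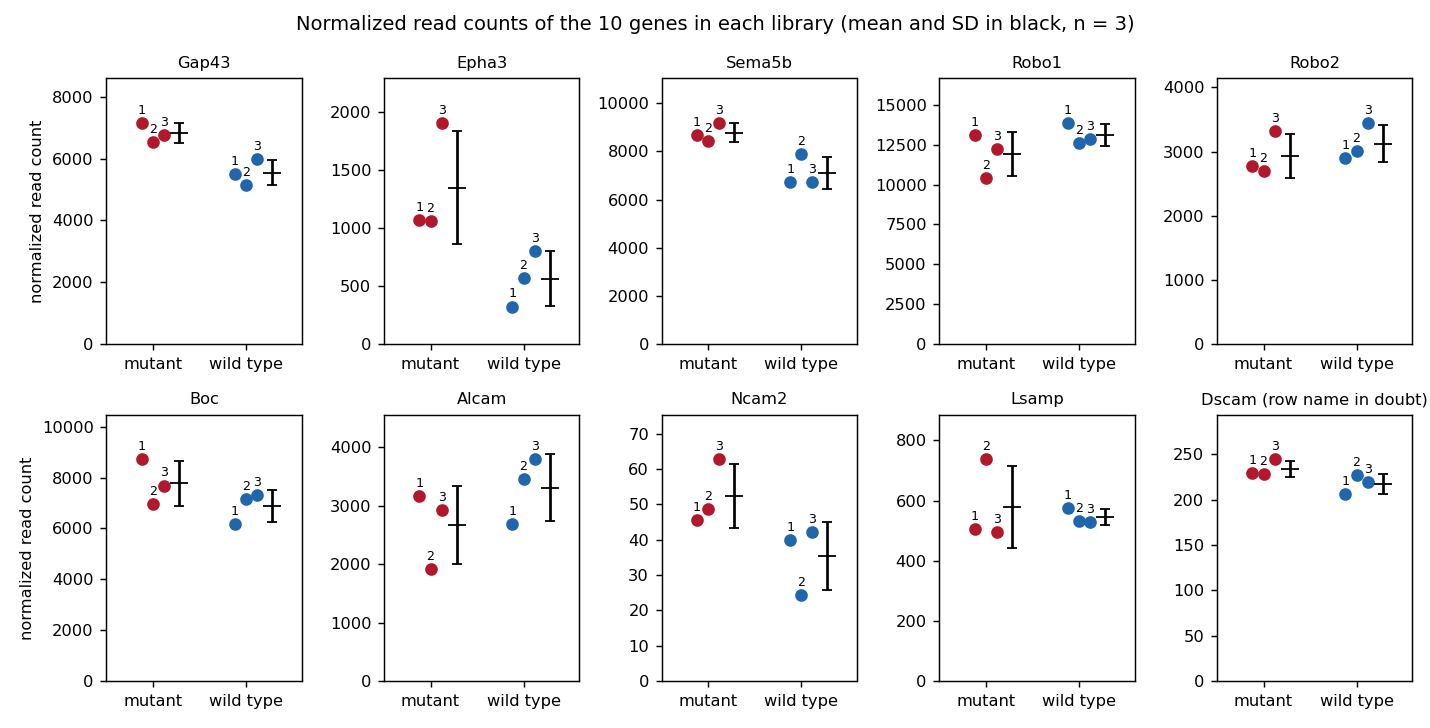
Normalized read count of each gene in the 3 mutants (red, left) and the 3 wild types (blue, right), with replicate numbers at the points and the mean and SD in black. The mutants lie above every wild type for Gap43, Epha3, Sema5b, Ncam2 and the Dscam row, and the genotypes overlap for the other 5.

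Gap43 encodes a membrane-bound growth cone protein of extending axons. It had 7159, 6547 and 6772 normalized read counts in mutants 1, 2 and 3, against 5504, 5159 and 5974 in wild types 1, 2 and 3. Every mutant was above every wild type, and the means differed by more than the SD of either genotype (309 in mutants and 409 in wild types). The mean was 1.23-fold that of wild types, a log2 difference of 0.30 ± 0.075 (SE; limma, adjusted p = 0.331). Over the alternatives tried its adjusted p ran from 0.0513 to 0.737. Its spread among libraries of 1 genotype was small, with a coefficient of variation of 4.53% in mutants and 7.38% in wild types, although counting alone gives at most 1.58%.

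Epha3 encodes a receptor tyrosine kinase that binds ephrin-A ligands on other cells. It had 1071, 1064 and 1911 normalized read counts in mutants, against 325, 571 and 804 in wild types. The genotypes did not overlap, and mutant 3 was far above the other mutants while wild type 1 was the lowest library. Of the 10 genes it had the largest difference and the largest spread: the log2 difference was 1.29 ± 0.33 (SE; limma, adjusted p = 0.367), and the coefficient of variation was 36.1% in mutants and 42.2% in wild types. Counting accounts for at most 6.50%. Leaving out wild type 1 gave 0.93, leaving out mutant 3 gave 1.01 and leaving out wild type 3 gave 1.59. Over the alternatives the adjusted p ran from 0.0996 to 0.737.

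Sema5b encodes a transmembrane semaphorin, a cue that inhibits axon growth in several settings. It had 8698, 8419 and 9192 normalized read counts in mutants, against 6713, 7877 and 6730 in wild types. Wild type 2 was the highest wild type and still lay below every mutant. The log2 difference was 0.31 ± 0.080 (SE; limma, adjusted p = 0.367, and 0.0785 to 0.747 over the alternatives), close in size to that of Gap43.

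Robo1 and Robo2 encode receptors for the Slit repellents. Robo1 had 13092, 10432 and 12201 normalized read counts in mutants, against 13874, 12610 and 12832 in wild types. Mutants 2 and 3 were below every wild type and mutant 1 was among them. Its log2 difference was -0.14 ± 0.089 (SE; limma, adjusted p = 0.552), and it was -0.05 without mutant 2 and -0.21 without mutant 1. Robo2 had 2773, 2695 and 3323 in mutants, against 2902, 3010 and 3449 in wild types, a log2 difference of -0.09 ± 0.10 (SE; limma, adjusted p = 0.735). Mutants 1 and 2 were below every wild type, and library 3 was the highest of each genotype. Without wild type 3 the difference was -0.02, without mutant 2 -0.04 and without mutant 3 -0.19. The ratio of Robo1 to Robo2 reads within a library, with no correction for length, was 4.72, 3.87 and 3.67 in mutants and 4.78, 4.19 and 3.72 in wild types, so that the ratios overlapped as well.

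Boc encodes a receptor with immunoglobulin and fibronectin domains that binds Sonic hedgehog and takes part in the guidance of commissural axons. It had 8716, 6946 and 7689 normalized read counts in mutants, against 6166, 7156 and 7318 in wild types. Mutants 1 and 3 were above every wild type, and mutant 2 fell among them. The log2 difference was 0.18 ± 0.10 (SE; limma, adjusted p = 0.535), 0.10 without wild type 1, 0.09 without mutant 1 and 0.25 without mutant 2.

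The other genes encode adhesion molecules of the immunoglobulin superfamily. Alcam, which binds itself and CD6, had 3167, 1909 and 2924 normalized read counts in mutants, against 2686, 3455 and 3792 in wild types. Mutant 2 was the lowest library, and the other mutants lay among the wild types. The log2 difference was -0.33 ± 0.20 (SE; limma, adjusted p = 0.543). Without single libraries it ran from -0.47 (without wild type 1) to -0.11 (without mutant 2).

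Lsamp encodes a lipid-anchored adhesion protein of the IgLON family. It had 505, 737 and 496 normalized read counts in mutants, against 575, 531 and 527 in wild types. Mutants 1 and 3 were below every wild type and mutant 2 above all. Its direction rests on that library: the log2 difference was 0.07 ± 0.16 (SE; limma, adjusted p = 0.882), and -0.12 without mutant 2. No direction is therefore read for Lsamp.

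Ncam2, a relative of the neural cell adhesion molecule best known from olfactory axons, had the fewest reads of the 10. It had 45.6, 48.6 and 62.7 normalized read counts in mutants, against 39.8, 24.2 and 42.1 in wild types, resting on 49, 48 and 85 reads in mutants and on 29, 25 and 40 reads in wild types. The genotypes did not overlap, but the nearest libraries of the genotypes were within counting error of each other. The exact 95% Poisson interval of mutant 1, the lowest mutant, ran from 33.8 to 60.3, and that of wild type 3, the highest wild type, from 30.1 to 57.3. These intervals cover counting error only and compare single libraries, so they do not bear on the difference between the genotype means. The log2 difference was 0.58 ± 0.28 (SE; limma, adjusted p = 0.481). Without single libraries it ran from 0.33 (without wild type 2) to 0.72 (without wild type 3).

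The row named Dscam, a homophilic adhesion molecule and netrin receptor by name, had 229, 228.0 and 244 normalized read counts in mutants, against 206, 227.5 and 219 in wild types. The genotypes were apart by less than 1 normalized read count, between mutant 2 and wild type 2. Mutant minus wild type was on the log2 scale 0.11 ± 0.12 (SE; limma, adjusted p = 0.745), 0.07 without wild type 1 and 0.14 without wild type 2.

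**Figure D4:**
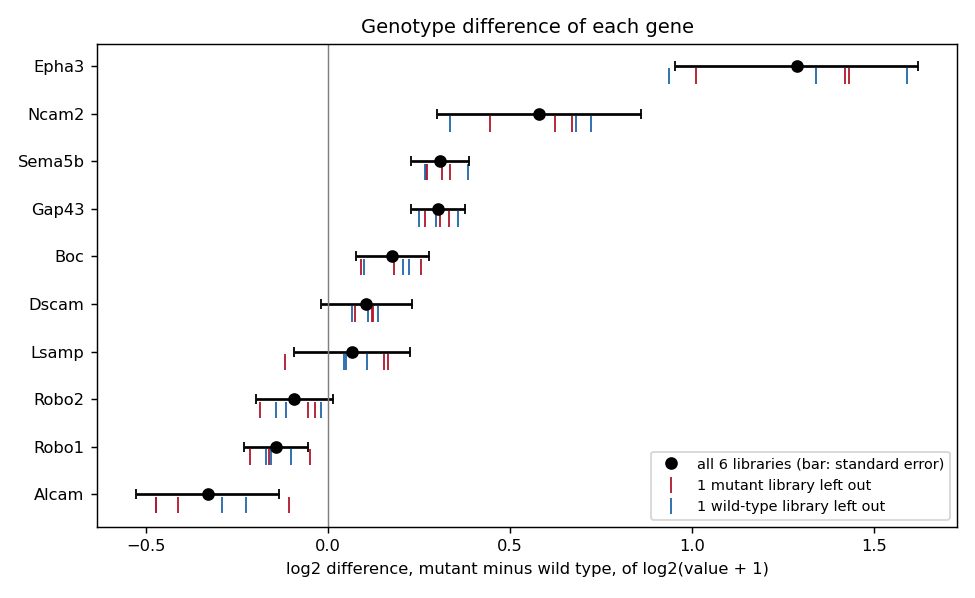
Log2 difference, mutant minus wild type, of each gene with its standard error (black) and the same with 1 library left out (red for a mutant, blue for a wild type). Epha3 stands at 1.29 and moves between 0.93 and 1.59. Gap43 moves between 0.25 and 0.36 and Sema5b between 0.27 and 0.38, and Lsamp lies on both sides of 0.

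Upstream sequence is shown for Epha3 and Sema5b, whose mutant values lay above all wild-type values, and for Robo1 and Alcam, whose means were lower in mutants. The table of RefSeq promoters on GRCm38.p6 matched 8 of the 10 genes with 11 promoters. Gap43 and Boc had no entry. Each sequence is the 250 bases before the annotated start, 5′ to 3′ on the strand of the gene, with each CANNTG in capitals. CANNTG is the E-box bound by basic helix-loop-helix factors, which include the proneural proteins. It reads the same on both strands and contains the narrower motifs CAGCTG and CAGATG. Epha3 lies on the minus strand at chr16:63864176-63864425, Sema5b on the plus strand at chr16:35541112-35541361, Robo1 on the plus strand at chr16:72662899-72663148 and Alcam on the minus strand at chr16:52453082-52453331.
Epha3: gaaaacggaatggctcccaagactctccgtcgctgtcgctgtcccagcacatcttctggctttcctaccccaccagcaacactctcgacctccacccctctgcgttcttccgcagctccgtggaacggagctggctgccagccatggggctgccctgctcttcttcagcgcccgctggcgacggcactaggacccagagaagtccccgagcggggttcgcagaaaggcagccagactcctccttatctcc
Sema5b: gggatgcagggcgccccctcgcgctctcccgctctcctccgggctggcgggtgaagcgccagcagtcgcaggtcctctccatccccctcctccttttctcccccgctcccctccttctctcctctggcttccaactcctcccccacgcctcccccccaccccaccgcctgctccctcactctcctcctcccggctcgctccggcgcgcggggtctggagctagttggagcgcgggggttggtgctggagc
Robo1: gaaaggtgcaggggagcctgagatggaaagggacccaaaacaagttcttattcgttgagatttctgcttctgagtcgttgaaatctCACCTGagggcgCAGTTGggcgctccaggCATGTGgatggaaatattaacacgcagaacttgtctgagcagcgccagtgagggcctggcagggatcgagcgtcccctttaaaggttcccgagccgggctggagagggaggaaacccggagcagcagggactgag
Alcam: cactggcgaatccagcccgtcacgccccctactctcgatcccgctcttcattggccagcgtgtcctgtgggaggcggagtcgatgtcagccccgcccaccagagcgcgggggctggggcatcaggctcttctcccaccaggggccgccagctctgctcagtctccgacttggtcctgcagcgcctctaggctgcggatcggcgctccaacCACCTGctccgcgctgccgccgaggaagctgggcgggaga

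No CANNTG was found in these windows of Epha3 and Sema5b, 3 were found for Robo1 and 1 for Alcam. Of the 11 promoters 7 held the motif, or 1 promoter of Alcam, 1 of Robo1, 2 of Lsamp and 3 of Robo2. Those of Epha3, Sema5b, Ncam2 and Dscam did not. Of all 32851 promoters, 66.2% held it in a window of the same length. CAGCTG was found in 1 promoter, of Robo2, and CAGATG in 1, of Lsamp, where 4271 and 4745 of all promoters held them when both strands were read. TATAAA was found in none of the 11 on either strand, and in 12.4% of all. The 4 windows printed are rich in G and C, with 62.8% for Epha3, 72.0% for Sema5b, 56.0% for Robo1 and 69.2% for Alcam. A match here is a run of letters, and nothing is read from it about a factor.

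Other guidance and adhesion genes with rows in the stretches where names and levels match were mostly on the other side of 0. Of 23 such genes on chromosome 16 before Pigp and in the first 10 Mb of chromosome 19, 7 had a higher mean log2 value in mutants and 16 a lower one. Over all tested rows 48.9% had a higher one. Their median log2 difference was -0.06, and 0 passed over all rows by limma, edgeR or DESeq2, with 2 at an unadjusted limma p below 0.05, where 10.8% of all tested rows did. The genotypes did not overlap in 4 (Rtn4r, App, Crkl and Itsn1), all with the mutants lower, where 10.4% of all tested rows did so in that direction and 19.1% in either. Rtn4r, the Nogo receptor that restrains axon growth, averaged 99.2 ± 7.98 in mutants and 133 ± 12.4 in wild types (SD, n = 3 each), a log2 difference of -0.41 (limma, adjusted p = 0.432). App, the amyloid precursor, a membrane protein of growing neurites, averaged 21599 ± 2549 in mutants and 25009 ± 1294 in wild types (SD, n = 3 each), a log2 difference of -0.22 (limma, adjusted p = 0.441). The adaptor Crkl was at -0.14 and the junction protein Jam2 at 0.27 (limma, adjusted p = 0.481 and 0.462).

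The other Eph receptors of chromosome 16 were added after their values were seen. Epha6 averaged 31.7 ± 5.87 in mutants and 20.7 ± 12.2 in wild types, and Ephb3 5696 ± 436 in mutants and 5943 ± 179 in wild types (SD, n = 3 each). The genotypes overlapped for both, so that of the Eph receptors there only Epha3 did not overlap, which is no test of a difference between them.

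Whole pathways could be counted by row name only, since most of their rows lie outside the stretches where names and levels match; each list includes its members among the 10. By limma and by edgeR 0 of their rows passed over all rows. DESeq2 on recovered reads called 3, where it called 1.16% of all tested rows. All 3 were higher in mutants: the rows named Srgap2 (log2 difference 1.49, adjusted p = 0.000942), Dcc (0.55, adjusted p = 0.0397) and Ntm (0.68, adjusted p = 0.0166). Their names lie outside the stretches where names and levels match, and nothing is read from their count. Rows of the Slit and Robo list had 6 higher and 3 lower means in mutants of 9 tested, netrins and their receptors 5 and 8 of 13, Eph receptors and ephrins 5 and 12 of 17, and semaphorins, plexins and neuropilins 10 and 12 of 22. Immunoglobulin adhesion molecules had 19 higher and 6 lower of 25, hedgehog pathway genes 5 and 2 of 7, and growth cone proteins 6 and 9 of 15. The share of all tested rows with a higher mean log2 value in mutants was 48.9%. At an unadjusted limma p below 0.05 these lists held 2, 4, 1, 5, 3, 0 and 4 rows in the same order, where 10.8% of all tested rows did.

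Of 12 neuron genes with a fitting row 10 were tested, and 6 of these had higher and 4 lower mean log2 values in mutants. Over all tested rows 48.9% had higher ones. By limma, edgeR and DESeq2 0 passed, and 3 had an unadjusted limma p below 0.05, where 10.8% of all tested rows did. Sst, the neuropeptide somatostatin, had 1034, 651 and 1227 normalized read counts in mutants, against 32.9, 201 and 278 in wild types (limma, adjusted p = 0.331). Sept5, a septin of synaptic terminals, had 2934, 2955 and 3153 in mutants, against 2212, 2410 and 2623 in wild types (limma, adjusted p = 0.367). For both, every mutant lay above every wild type. The same held for the fibroblast growth factor homologue Fgf12, at a log2 difference of 0.35. The genotypes were thus apart in 3 of the 10, with the mutants higher, where 8.69% of all tested rows were. The potassium channel Kcnk4 was at 0.49 with overlapping genotypes. The other tested genes, named after their values were seen, were Tagln3 at 0.19, Synj1 at 0.05, Grik1 at -0.04, Syt12 at -0.19, Chodl at -0.22 and Stxbp5l at -0.26, each with overlapping genotypes.

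The summed level of the 12 neuron genes was 9820 to 10803 normalized read counts in mutants and 7457 to 8861 in wild types. Sst and Sept5 carried this separation. Without Sst the sums were 8816 to 9576 in mutants and 7424 to 8617 in wild types, and without Sst and Sept5 they overlapped, at 5882 to 6423 in mutants and 5212 to 6207 in wild types. None of the 12 was at 0, although Drd3 and Npas4 were below the minimum mean of 10. The part of neuron number in the values of the guidance genes was not tested.

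Crest and mesenchyme genes had 3 higher and 6 lower means of 9 in mutants, where 48.9% of all tested rows had a higher mean log2 value. Their sum was 29354 to 36035 in mutants and 37002 to 40331 in wild types, but this rested on Fstl1, a secreted mesenchymal protein at a log2 difference of -0.38. Without it the sums overlapped, at 12729 ± 579 in mutants and 12722 ± 168 in wild types (SD, n = 3 each). The myosin kinase Mylk, at 0.13, made up the largest part of what remained (8860 in mutants and 8108 in wild types on average). The T-box factor Tbx1 went the other way, at -0.53 (1772 in mutants and 2570 in wild types on average), and Abi3bp was at -0.41. The near-equal sums without Fstl1 thus do not show that its other genes were equal. Endothelial genes had 3 higher and 2 lower means of 5, and summed to 12017 to 12490 in mutants and 12581 to 13171 in wild types. That sum rested on Cldn5, the tight junction claudin of endothelium, at -0.65. Without it the sums overlapped and the mean was higher in mutants, at 10817 ± 177 in mutants and 10633 ± 129 in wild types (SD, n = 3 each). Vegfb, at a log2 difference of 0.04, made up the largest part of what remained (5722 in mutants and 5535 in wild types on average). Adamts1, named after its values were seen, came next at 0.05 (4033 in mutants and 3869 in wild types on average). The sum without Cldn5 thus mostly follows Vegfb and Adamts1, and says little of the other genes. Klhl6, at -0.43, was like Cldn5 lower in every mutant than in any wild type. The genotypes were thus apart in 2 of the 5, both with the mutants lower, where 10.4% of all tested rows were. Runx1 was at 0.41. Sums without single genes were chosen after seeing the data.

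Sums of progenitor and cell cycle genes (121198 to 131158 in mutants and 125220 to 133479 in wild types) overlapped, with 6 higher and 3 lower means of 9. For this list and the next, the share of all tested rows with a higher mean log2 value in mutants was 48.9%. The RNA-binding protein Igf2bp2, at -0.04, and the replication factor Mcm4, at -0.10, made up most of the progenitor sum. Igf2bp2 averaged 48234 in mutants and 49607 in wild types, and Mcm4 42399 in mutants and 45599 in wild types. The overlap of the sums thus says little of the other genes. Mcm4 was lower in every mutant than in any wild type, where 10.4% of all tested rows were. The neural transcription factors Olig2 and Olig1 were at 0.38 and 0.42. Epithelial sums (2033 to 3043 in mutants and 1885 to 2362 in wild types) also overlapped, with 4 higher of 4: Trp63 at 0.18, Ovol1 at 0.26, Cldn8 at 0.04 and Cldn1 at 0.02. So did those of blood, immune and plasma genes (928 to 1439 in mutants and 1226 to 1456 in wild types), with 1 higher and 5 lower of 6, among them Il10rb at -0.26, Rasgrp2 at -0.29, Fetub at -0.06 and Bcl6 at 0.02. In these lists of other cell types limma and edgeR called 0 genes. At an unadjusted limma p below 0.05 there were 4 (Cldn5, Klhl6, Tbx1 and Fstl1), where 10.8% of all tested rows were. The lists held 9 crest and mesenchyme, 5 endothelial, 9 progenitor, 4 epithelial and 6 blood genes tested. DESeq2 on recovered reads called Cldn5 alone (adjusted p = 0.00176), where it called 1.16% of all tested rows. Their part in the differences of the guidance genes was not tested.

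**Figure D5:**
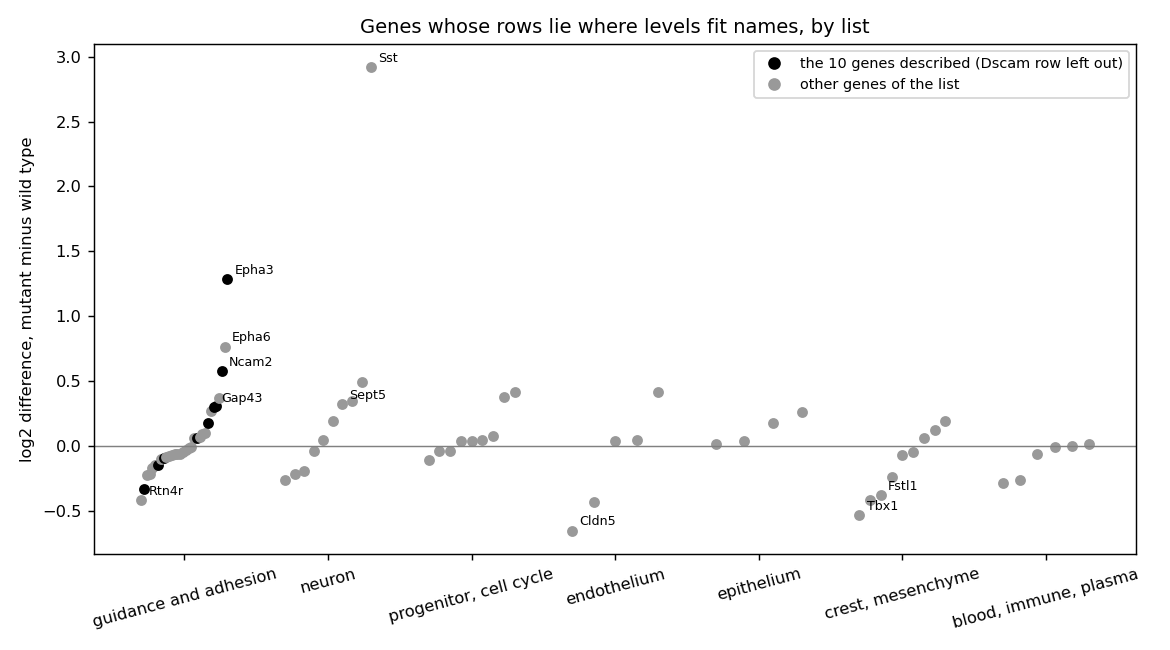
Log2 difference, mutant minus wild type, of every tested gene with a fitting row, by list, with genes of the 10 in black and others in grey. Among guidance and adhesion genes the black points reach highest (Epha3, 1.29), most grey points lie just below 0, and Sst (2.92) and Cldn5 (-0.65) mark the extremes of the other lists.

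The rows of chromosome 16 most like Gap43 and Epha3 across the 6 libraries were taken from 429 rows with a mean of at least 100. For Gap43 they were Top3b, a topoisomerase, with a Pearson r of 0.914 on log2 values, the centriole gene Spice1 (0.901) and Sept5 (0.883). For Epha3 they were Sept5 (0.977), Sst (0.956) and Snn (0.937). Sept5 was near both, and Sst ranked the libraries in the same order as Epha3, with a Spearman rho of 1. These values include the genotype difference, come from 6 libraries and are the highest of 429, so they describe likeness in these libraries only.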

How the data were processed

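The authors deposited 1 normalized signal per row and library, called normalized read count here. CASAVA 1.7, bedtools and mm9 are named in the submitters' processing notes, without their roles; how reads were counted, whether strand was used and which annotation served is not given in the sources used here. Every deposited value was a multiple of 1 step per library, so whole reads could be recovered (100% of values, tolerance 0.001 reads). The other 17 columns were not used.

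For the 13329 rows with a mean of at least 10, log2(value + 1) was tested two-sided in limma 3.58.1 (R 4.3.3), with its mean-variance trend. All 10 genes passed this filter. This scale understates changes of low rows. P-values were Benjamini-Hochberg adjusted over all these rows, at 0.05. Recovered reads went into edgeR 4.0.16 (quasi-likelihood test) and DESeq2 1.42.0 as alternatives; for 2073 rows DESeq2 returned no adjusted p. The scripts were tested on simulated data.

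Row names were matched to RefSeq genes of GRCm38.p6: 14322 by symbol, 1287 by an older symbol and 125 not. As the notes name another build, this gave only names, chromosomes and gene order, and the printed promoters carry its coordinates. Exon lengths are unions of GENCODE M21 exons. The genes and lists were chosen with earlier results of these data known. All 10 genes are named, and from each list in stretches where names and levels match up to 4 others of smallest p.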

Additional observations from a re-analysis of the deposited data

How the results depend on the processing

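The count of members past the threshold was 0 under each of the 17 alternatives, and of the 169 member values recomputed under them 167 kept the sign. The exceptions were both Lsamp: its log2 difference was -0.0478 with array quality weights and ran from -0.12 to 0.165 without single libraries, negative without mutant 2. The 3 rows called over the whole table became 5 with quantile normalization, 5 with equal medians, 60 with array quality weights, 155 with DESeq2 on recovered reads and 0 without a mean-variance trend, and 0 to 14 without single libraries (0 without wild type 2 or 3, 14 without mutant 1 or 2); the cause was not tested. Members with non-overlapping genotypes numbered 5 in the main setting, where 19.1% of all tested rows did not overlap, and 4 to 7 over the alternatives. The 4 came with Ncam2 or the Dscam row left out, and the 6 and 7 with equal medians or with 1 library left out. Fewer libraries are more easily apart, and the share over all rows was not computed for these settings, so nothing is read from this range. The median log2 difference of the members ran from 0.102 to 0.189. Ncam2 left the test at a minimum mean of 50. The Dscam row was left out as an alternative chosen after seeing the data.

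Same-numbered libraries did not deviate together (correlations of -0.0448, -3e-04 and 0.0585), so numbers were not taken as pairs. With the replicate block the whole table again gave 3 calls and the members 0. The adjusted p of Epha3 was 0.0996 under the block.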
